A study of Schizosaccharomyces pombe with 6 samples.

Results

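The transcripts of 10 genes that form or control the TOR complexes of the fission yeast Schizosaccharomyces pombe were followed in poly(A)-selected RNA of whole cells. The genes are tor1, tor2, mip1, ste20, sin1, gad8, tsc1, tsc2, rhb1 and gaf1, chosen by their symbols among the 5160 entries of the deposited table, and each symbol matched 1 entry. Of the 6 libraries, 3 are wild-type and 3 come from a dsk1 mutant, and Dsk1 is a kinase that acts on SR splicing proteins. The series text calls the mutant a deletion, while its genotype label reads knockdown. The labels give no other allele, medium or growth phase, and they do not state whether each replicate is a culture of its own. The p-values below therefore reflect the spread among these libraries alone, which may be technical.

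TOR kinases couple growth to nutrients, and their names in fission yeast run against intuition. Tor2 is the kinase of TOR complex 1 (TORC1), which it forms with the Raptor homologue Mip1, and which promotes growth and holds back mating while nitrogen is plentiful. Tor1 is the kinase of TOR complex 2 (TORC2), with the Rictor homologue Ste20 and Sin1, and this complex activates the AGC kinase Gad8 and is needed for mating and stress survival. The small GTPase Rhb1, the Rheb homologue, activates TORC1, and the Tsc1-Tsc2 complex (hamartin and tuberin) acts on Rhb1 as its GTPase-activating protein. The GATA-type transcription factor Gaf1 enters the nucleus when TORC1 is inhibited.

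Library totals were 15700362 to 19020530 counts. The dsk1 transcript itself was at 31.9, 28.7 and 32.6 FPKM (fragments scaled to gene length and library size) in the wild-type libraries and at 4.50, 3.76 and 3.52 FPKM in the mutant libraries, a log2 fold change of -3.03 (SE 0.13; edgeR adjusted p = 1.34e-04). In the RefSeq annotation the coding gene lsc1 on the other strand covers 34.1% of dsk1. The use of strand in counting is not known, so the reads left in the mutant cannot be assigned to dsk1 with certainty. The marker gene ura4 was without counts (0) throughout the wild type and had 1392 to 1957 counts per mutant library, so the strains differed in more than dsk1.

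All 10 TOR transcripts were well measured, with 1154 to 5827 counts in any library. The lowest of these counts carries a counting error of 2.94%, beside coefficients of variation between libraries of a group that ran from 1.76% to 35.2%. Per length, the order of the mean FPKM over the 6 libraries ran from rhb1 at 234 FPKM and gad8 at 104 FPKM down to tsc2 at 21.5 FPKM, against a median of 39.6 FPKM over all genes with a value. These transcripts, for the GTPase and the AGC kinase, stood above the others in each library. Next came ste20 at 55.6, sin1 at 50.4, mip1 at 49.98 and gaf1 at 48.8 FPKM, and the ranges of these neighbours overlapped. The last group held tsc1 at 28.9, tor2 at 22.99, tor1 at 22.5 and tsc2 at 21.5 FPKM, again with overlapping ranges between neighbours. Gaf1 was above tsc1 in 6 of 6 libraries with ranges apart, so the 2 groups were separated. Both TOR kinases and both TSC subunits thus lay below the median gene, and their accessory subunits Mip1, Ste20 and Sin1 above it at the transcript level.

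**Figure D1:**
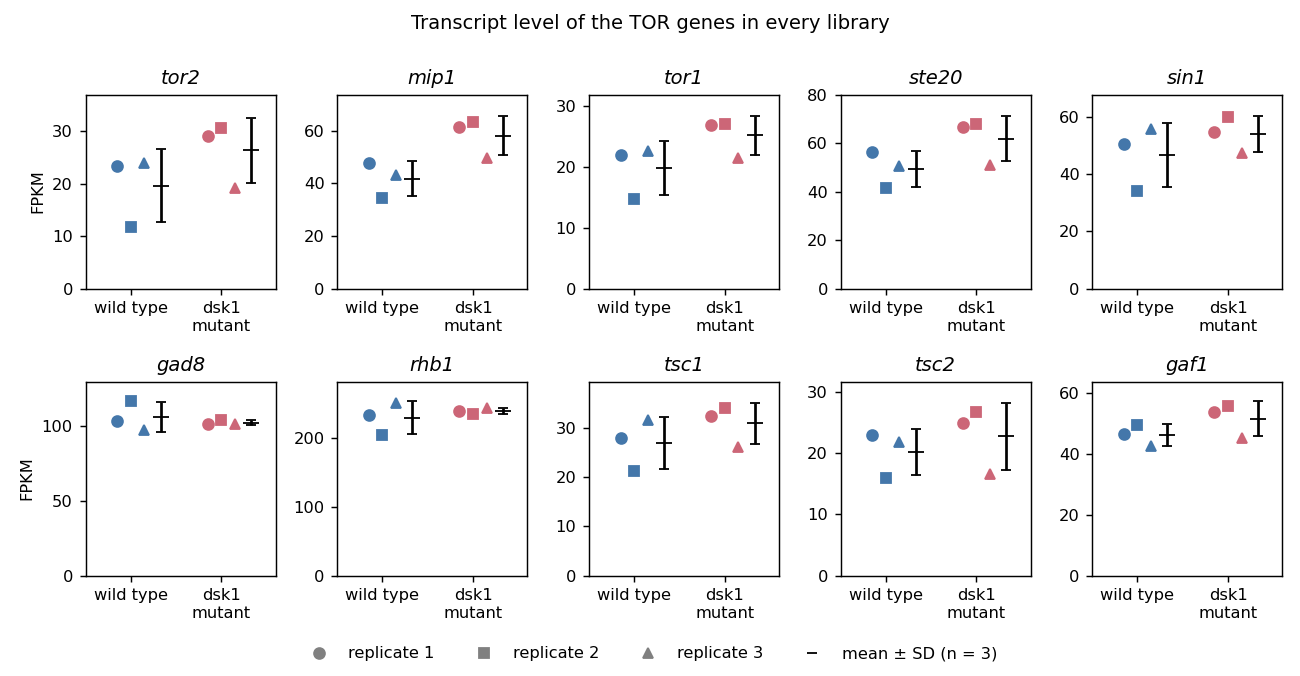
FPKM of each TOR gene (vertical axes, from 0) in every library, with wild-type libraries in blue, mutant libraries in red, symbols for the replicate and bars for the mean ± SD of 3 libraries. Wild-type replicate 2 is the lowest wild-type library for 8 of the 10 genes, and mutant replicate 3 is the lowest mutant library for 9 of the 10, rhb1 excepted.

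The comparison asks which TOR transcripts change when dsk1 is mutated. None of the 10 passed the test over all genes: edgeR called 0 higher and 0 lower, where it called 2.03% of the 4987 tested genes at an adjusted p under 0.05. At an unadjusted p under 0.05 there was 1 member, mip1, against 22.7% of tested genes. The 95% intervals of the 10 log2 fold changes lay between -0.45 and 0.96, so a doubling lay outside the interval of each. In RNA of whole cultures, less RNA per cell and fewer cells that carry it cannot be told apart.

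For TORC1, tor2 was at 23.3, 11.7 and 23.96 FPKM in the wild-type libraries and 29.2, 30.7 and 19.2 FPKM in the mutant libraries. Wild-type replicate 2 had less than every other library. The groups overlapped because mutant replicate 3 had less than the other 2 wild-type libraries. With a ratio of 2.05 between its highest and lowest wild-type library, tor2 varied more within the wild type than any other of the 10. Its log2 fold change, mutant over wild type, was 0.39 (SE 0.24, 95% interval -0.18 to 0.96, adjusted p = 0.359) and 0.17 without wild-type replicate 2.

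Its partner mip1 was at 47.6, 34.6 and 43.1 FPKM in the wild type and 61.3, 63.5 and 49.8 FPKM in the mutant. Each mutant library was above each wild-type library. The log2 fold change was 0.43 (SE 0.12, 95% interval 0.15 to 0.71), a 1.35-fold difference that did not pass (adjusted p = 0.105). Over the alternatives it ranged from 0.29 to 0.51, with adjusted p between 0.0183 and 0.372. The lowest of these came from the DESeq2 Wald test, the only alternative that called a member, and it called 4.01% of its tested genes higher. The authors' deposited table lists mip1, alone of the 10, below an adjusted p of 0.05, with a log2 ratio of mean FPKM of 0.48. Of all its entries, 11% lay below that cut. The adjusted p there matched that DESeq2 test to within 1% for all 5112 entries compared. It is thus the same test and no second line of evidence. The deposited table of genes past the authors' own thresholds holds none of the 10. The 3 tested genes nearest to mip1 over the 6 libraries were the spindle checkpoint kinase gene bub1, the ubiquitin ligase gene ubr11 and the ubiquitin protease gene otu1, at root mean square distances of 0.040, 0.044 and 0.052 between centred log2 CPM profiles. This likeness is a description of 6 libraries.

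In TORC2, tor1 was at 22.1, 14.8 and 22.7 FPKM in the wild type and 26.9, 27.1 and 21.5 FPKM in the mutant. After TMM scaling of the counts, the mutant libraries (171 to 193 CPM) lay above the wild-type libraries (124 to 163 CPM), and in FPKM the groups overlapped. The log2 fold change was 0.31 (SE 0.14, adjusted p = 0.242), and 0.19 without wild-type replicate 2. With mip1, tor1 was 1 of 2 members whose groups did not overlap in CPM with the mutant higher, as was the case for 15.5% of tested genes. For 0 members were all mutant libraries below all wild-type libraries, as was the case for 16.6% of tested genes.

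The Rictor gene ste20 was at 56.3, 41.4 and 50.4 FPKM in the wild type and 66.7, 67.9 and 51.1 FPKM in the mutant. Mutant replicate 3 lay within the wild-type range, and the other mutant libraries lay above it. Its log2 fold change was 0.28 (SE 0.13, adjusted p = 0.235). The gene sin1, for the TORC2 subunit that binds substrates, was at 50.5, 34.1 and 55.6 FPKM in the wild type and 54.6, 60.1 and 47.5 FPKM in the mutant. Those groups overlapped, and its log2 fold change of 0.17 (SE 0.15, adjusted p = 0.497) was 0.046 without wild-type replicate 2 and 0.28 without wild-type replicate 3.

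The TORC2 substrate kinase gene gad8 was the only member below 0. It was at 104, 117 and 97.5 FPKM in the wild type and 101, 105 and 101 FPKM in the mutant, where its coefficient of variation was 1.76%. The mutant values lay inside the wild-type range. Its log2 fold change was -0.11 (SE 0.15, adjusted p = 0.675) and turned to 0.049 without wild-type replicate 2, in which gad8, unlike the TOR kinases, was highest.

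Among the regulators of TORC1, rhb1 was at 234, 204 and 252 FPKM in the wild type and 239, 235 and 244 FPKM in the mutant. In FPKM all mutant values fell inside the wild-type range. After TMM scaling the mutant libraries ran more widely, from 175 to 204 CPM, against 180 to 191 CPM in the wild type. The log2 fold change was 0.021 (SE 0.11, 95% interval -0.24 to 0.28, adjusted p = 0.920), which turned to -0.049 without mutant replicate 3. The hamartin gene tsc1 was at 27.8, 21.3 and 31.6 FPKM in the wild type and 32.4, 34.1 and 26.1 FPKM in the mutant, with a log2 fold change of 0.16 (SE 0.13, adjusted p = 0.486), which was 0.074 without wild-type replicate 2 and 0.25 without wild-type replicate 3. The tuberin gene tsc2 was at 22.97, 15.9 and 21.9 FPKM in the wild type and 24.95, 26.8 and 16.6 FPKM in the mutant, with a log2 fold change of 0.12 (SE 0.17, adjusted p = 0.670). It was 0.072, 0.021 and 0.27 without mutant replicates 1, 2 and 3, and 0.20 and 0.037 without wild-type replicates 1 and 2. In both TSC genes the groups overlapped, with wild-type replicate 2 lowest in the wild type and mutant replicate 3 lowest in the mutant. Genes on the other strand overlap all 10 members in the RefSeq annotation, most of them noncoding, and cover from 7.31% of gaf1 to 88.9% of tsc2, with 82.4% of tsc1 and 83.3% of sin1. The largest overlap with a coding gene is that of tsc1 with tho2, over 34.2% of tsc1. The use of strand in counting is not given in the sources used here, so reads from the other strand cannot be told apart in any of the 10.

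The transcription factor gene gaf1 was at 46.3, 49.6 and 42.6 FPKM in the wild type and 53.6, 55.8 and 45.0 FPKM in the mutant. In FPKM the groups overlapped through mutant replicate 3. After TMM scaling they overlapped through wild-type replicate 2, whose 236 CPM lay above the mutant libraries (203 to 224 CPM). The log2 fold change was 0.098 (SE 0.14, 95% interval -0.23 to 0.42, adjusted p = 0.682), with 0.23 without wild-type replicate 2 and 0.0049 without wild-type replicate 3. Unlike tor2, gaf1 was highest in wild-type replicate 2 among the wild-type libraries. Its coefficient of variation in the wild type was the lowest of the 10 in FPKM, at 7.59% against 35.2% for tor2. This rank did not hold in CPM, where wild-type gaf1 was at 201 ± 31.6 and rhb1 at 184 ± 6.23 (SD, n = 3).

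**Figure D2:**
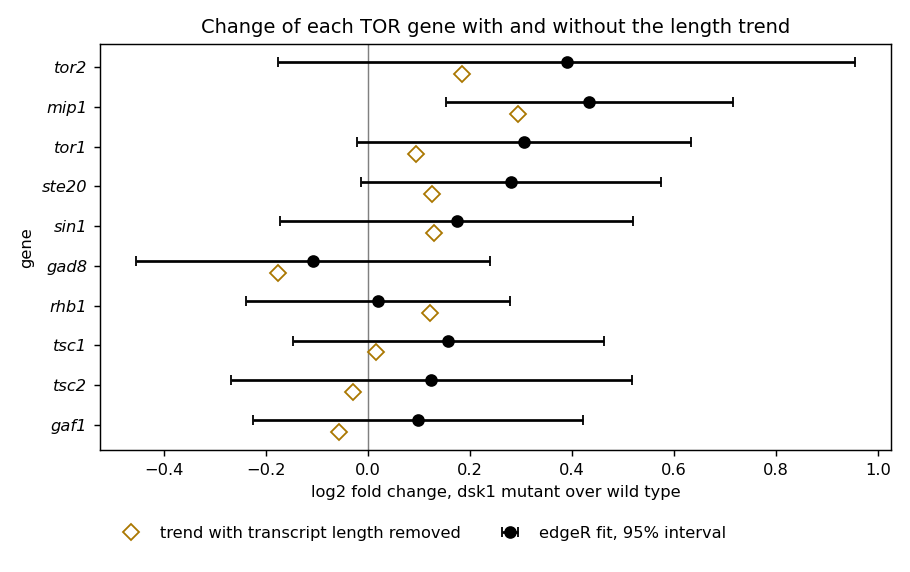
Log2 fold change of each TOR gene (horizontal axis, mutant over wild type) from the edgeR fit with its 95% interval (filled circles) and after the trend of counts with transcript length was removed from each library (open diamonds). The interval of mip1 alone lies above 0, and without the trend the values of tsc2 and gaf1 fall below 0.

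Most of the 10 genes have long transcripts. By the RefSeq annotation, 7 of 10 have no intron, where 51.2% of 4951 tested genes have none, a difference that was not tested. The other 3 are sin1 and rhb1 with 2 introns each and gad8 with 1. The tor1 and tor2 transcripts have 7501 and 7268 bases of exon. In the length implied by the deposited count and FPKM, they are longer than 99.5% and 99.4% of tested genes. The lengths implied by the deposited count and FPKM exceeded 4 kb for 7 members, against 386 tested genes in all. The shorter ones are gad8 at 2668, sin1 at 2308 and rhb1 at 715 bases of exon.

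This length goes along with the values above. Over all tested genes the median log2 fold change was -3.23e-04, while it was -0.13 over the 998 shortest, 0.13 over the 998 longest and 0.19 in the 386 genes over 4 kb, of which 69.9% were above 0. The 10 members had a median of 0.17, with 9 above 0, where 50% of all tested genes were. By library, the median deviation of the members from their own mean log2 CPM was -0.034, -0.26 and -0.015 in the wild type and 0.15, 0.20 and -0.0010 in the mutant. For the genes over 4 kb it was 0.0058, -0.26 and 7.43e-04 in the wild type and 0.17, 0.20 and -0.093 in the mutant. Wild-type replicate 2 was the low library and mutant replicates 1 and 2 the high ones in both sets.

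With the length trend removed from each library, the median of the members was 0.11 and 7 of 10 were above 0. The median in that fit was -0.0042 over all tested genes and 0.018 in the genes over 4 kb. The value of tor1 was then 0.094, that of tor2 0.18, of ste20 0.12 and of mip1 0.29. In the same fit tsc1 was at 0.016, tsc2 at -0.030 and gaf1 at -0.056, while the short rhb1 was at 0.12. The part of transcript length in these values was not tested beyond this fit.

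**Figure D3:**
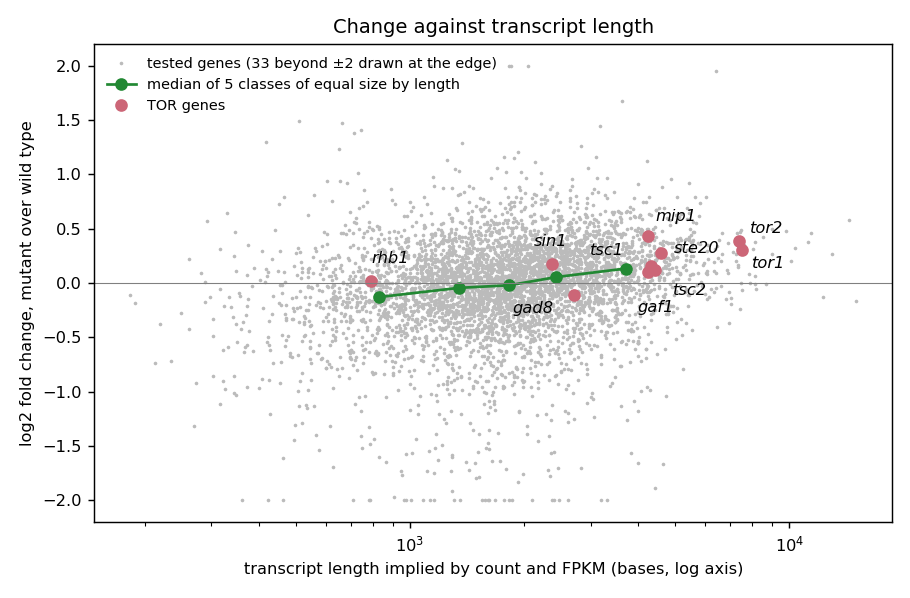
Log2 fold change (vertical axis, mutant over wild type) against the transcript length implied by count and FPKM (horizontal log axis, bases) for all tested genes (grey), the medians of 5 classes of about equal size by length (green) and the TOR genes (red). The medians run from -0.13 in the shortest class to 0.13 in the longest, and tor1 and tor2 lie at the far right.

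Ratios between partner transcripts within a library are free of library scaling. The tor2 to tor1 ratio was 1.06, 0.789 and 1.06 in the wild type and 1.08, 1.13 and 0.891 in the mutant, so the kinases of TORC1 and TORC2 had transcripts of near-equal level per length in most libraries. Mip1 stood at 2.27 ± 0.613 times tor2 in the wild type and 2.25 ± 0.293 times in the mutant (SD, n = 3). Ste20 stood at 2.53 ± 0.288 times tor1 in the wild type and 2.45 ± 0.0722 times in the mutant (SD, n = 3). For the TSC pair, tsc2 stood at 0.755 ± 0.0680 times tsc1 in the wild type and 0.731 ± 0.0833 times in the mutant (SD, n = 3). For these 4 ratios the groups overlapped, with exact two-sided permutation p of 0.5 to 0.8 and 0.8 after adjustment over the 5 ratios.

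The sin1 to tor1 ratio was 2.29, 2.30 and 2.46 in the wild type and 2.03, 2.22 and 2.21 in the mutant. It was lower in each mutant library than in each wild-type library, by a mean log2 difference of -0.13. The exact two-sided permutation p was 0.1 (0.5 after adjustment over the 5 ratios), the smallest that 3 against 3 libraries allow, so no ratio could have passed. The transcripts differ in length, and with the length trend removed from each library the difference turned to 0.053 (exact permutation p = 0.8), an alternative chosen after seeing the data.

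**Figure D4:**
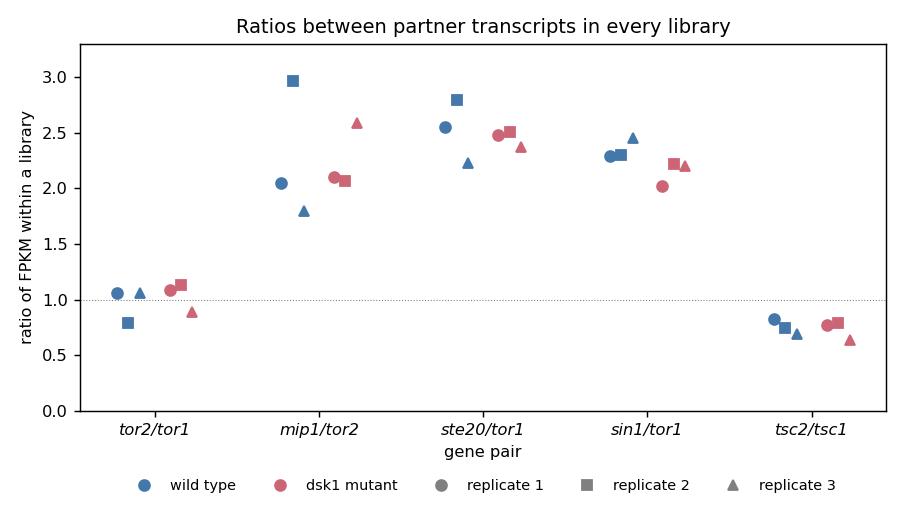
Ratio of FPKM of 2 partner genes within a library (vertical axis, from 0) for 5 gene pairs, with wild-type libraries in blue, mutant libraries in red and symbols for the replicate. Wild-type replicate 2 stands apart from the other wild-type libraries in mip1/tor2 (2.96) and tor2/tor1 (0.789).

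Around the 10 genes, the other subunits of the TOR complexes were not called, with 0 of 4 passing where 2.03% of all tested genes passed. Their median log2 fold change was -0.060. The TORC1 subunit gene tco89 was at 12.8, 8.52 and 11.3 FPKM in the wild type and 25.9, 23.9 and 15.9 FPKM in the mutant. Each mutant library was above each wild-type library, and the log2 fold change of 0.96 (SE 0.19) missed the threshold narrowly (adjusted p = 0.0512, 3.39e-04 to 0.275 over the alternatives). Of tco89, 81.1% is covered by rsm1 on the other strand, and its reads cannot be told from those of rsm1 without strand. The value of rsm1 in the same counts, -0.20 (adjusted p = 0.392), carries the same limit. The gene wat1, for the Lst8 subunit that both complexes share, was at -0.28, and the TORC2 subunit gene bit61, which omh3 covers wholly on the other strand, was at -0.19 without passing.

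Of the genes that feed nutrient, energy or assembly signals to TOR, 21 were tested and 0 passed, with 13 above 0 and a median of 0.079. Over all tested genes, 2.03% passed and 50% were above 0. The 3 with the smallest p were sea3, a subunit of the SEA complex that acts upstream of TORC1, at 0.62 (adjusted p = 0.0630), cbs2, the gamma subunit of AMP-activated kinase, at -0.48 (adjusted p = 0.0891), and asa1, an assembly factor of the kinase family TOR belongs to, at -1.29 (adjusted p = 0.101). The level of asa1 in the wild type was uneven, at 102, 165 and 64.9 FPKM, against 50.5, 48.1 and 45.6 FPKM in the mutant. The other GATA factor genes are fep1, for an iron-sensing repressor, and ams2, for an activator of histone genes. They were at -0.45 and 0.52 without passing (adjusted p = 0.184 and 0.0712). Genes on the other strand cover from 35.4% of fep1 to 92.9% of ams2 among the genes named here, with 83.7% of asa1. Their reads are thus also uncertain without strand.

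Among 21 tested genes downstream of TOR or bound by its inhibitor, 1 fell, 0 rose and 20 did not pass. Of all tested genes 2.03% were called, and the median of the list was -0.024. The gene that fell was fkh1, for FKBP12, the proline isomerase that binds rapamycin. It was at 362, 402 and 395 FPKM in the wild type and 186, 245 and 218 FPKM in the mutant. The groups stood well apart, and the log2 fold change was -0.89 (SE 0.15, adjusted p = 0.0358). It is a transcript of 519 bases of exon, and with the length trend removed the value was -0.73 and the call was lost (adjusted p = 0.0502). It was also lost without wild-type replicate 1 (-0.96, adjusted p = 0.0961) and without any 1 mutant replicate (-0.77 to -0.95, adjusted p = 0.122 to 0.195). The gene isp7, for an oxygenase that acts in the TOR pathway and was chosen here after its value was seen, was at 0.96 (adjusted p = 0.0513).

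Transcripts known to rise on nitrogen starvation or loss of TORC1 activity gave 1 rise, 0 falls and 9 that did not pass of 10 tested, where 2.03% of all tested genes were called. In the list 8 were above 0, where 50% of all tested genes were, with a median of 0.34, and 0.28 with the length trend removed. The riser was the oligopeptide transporter gene isp4, at 15.8, 14.2 and 14.5 FPKM in the wild type and 49.5, 26.0 and 48.8 FPKM in the mutant. Mutant replicate 2 was the lowest mutant library and still above the wild type. A noncoding gene on the other strand covers 96.1% of isp4, so its reads are uncertain without strand. Its log2 fold change was 1.45 (SE 0.27, adjusted p = 0.0426), and 1.72 without mutant replicate 2. The call was lost with the length trend removed (1.37, adjusted p = 0.0591), without wild-type replicate 1 or 3 (1.47 and 1.39, adjusted p = 0.151 and 0.0573) and without mutant replicate 1 or 3 (1.34 and 1.25, adjusted p = 0.218 and 0.125). The list was chosen with earlier results on isp4 known, so its median is a description.

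**Figure D5:**
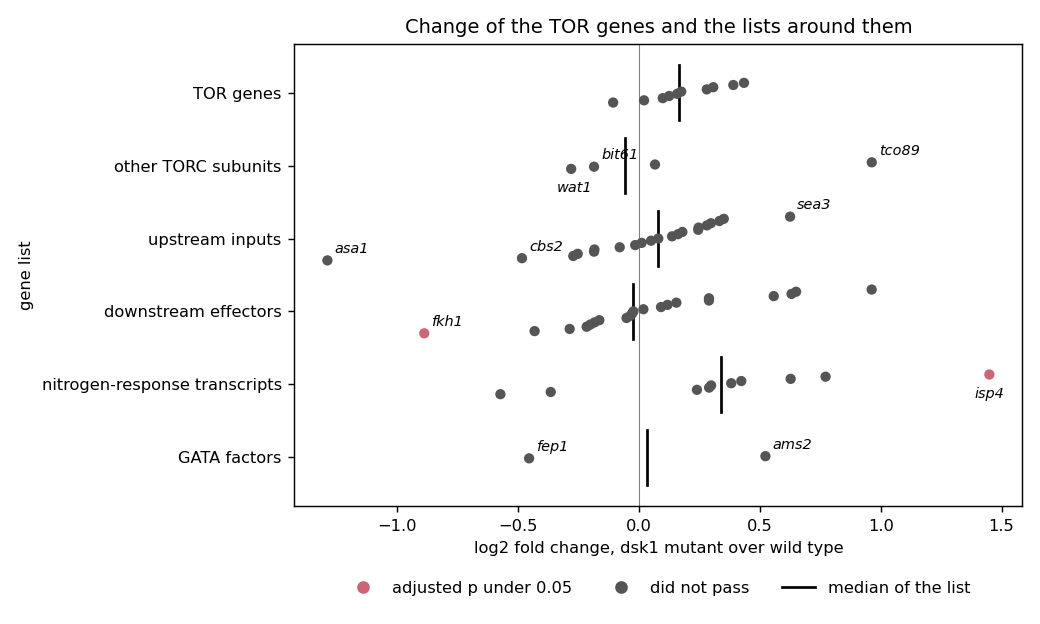
Log2 fold change (horizontal axis, mutant over wild type) of the 10 TOR genes and of the tested members of 5 lists around them, with called genes in red, others in grey and a bar at the median of each list. Only fkh1 and isp4 were called in these lists, while tco89 lies just short of the threshold.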

How the data were processed

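Samples were grouped by the genotype label. The tools in the submitters' processing notes are fastp, HISAT2, Bowtie2, RSEM, StringTie and DESeq2, without roles. The authors' build was not given in the sources used here, nor was strand use. The authors deposited, per the file headers, counts and FPKM per gene and library, the group means of FPKM, a log2 ratio of those means, a p-value and an adjusted p. The deposited table of genes past the authors' thresholds holds none of the 10 genes and was not used.

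The count test was the quasi-likelihood test of edgeR 4.0.16 (R 4.3.3), with TMM scaling, the default expression filter, which kept 4987 genes and all 10 members, and genotype as the only term. Adjustment followed Benjamini and Hochberg over all tested genes, and a call is an adjusted p under 0.05. CPM are counts scaled to the TMM library size, and SE and intervals come from the fit. The length trend was a loess curve fitted in each library and used as an offset. It related each gene's deviation from its own mean log2 CPM to the log of the length implied by count and FPKM. RefSeq assembly ASM294v3 gave exon lengths, introns and overlaps (5109 of 5160 entries matched). No coordinates or sequences are given, since the authors' build is not known.

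The members, lists and tests were chosen with earlier results of these data known. The rule for names took dsk1, the 10 members, and from each list every called gene, or the 3 with the smallest p. Of 59 names in the lists, 58 matched an entry, 2 of them through a synonym. Alternatives were other scalings, filters and thresholds, the DESeq2 1.42.0 Wald test, limma 3.58.1 on log2(FPKM + 1) and log2(FPKM + 0.1), a replicate block, the length offset, and each library left out. The ratios without the length trend were added after seeing the data. Chi-square per degree of freedom between replicates was 26.7 to 280, so no library was a copy of another.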

Additional observations from a re-analysis of the deposited data

How the results depend on the processing

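Of 180 values of the 10 members under the alternatives, 173 kept their direction and their side of the threshold. The DESeq2 Wald test called 1 member higher (mip1, at 0.44). With the length trend removed, gaf1 was at -0.056 and tsc2 at -0.030, and with the replicate block added to that fit they were at -0.033 and -0.034. With a library left out, gad8 ranged from -0.20 to 0.049 and rhb1 from -0.049 to 0.064. In the same fits the log2 difference between the groups ranged from -0.13 to 0.22 for mip1/tor2, from -0.13 to 0.040 for ste20/tor1, from -0.037 to 0.21 for tor2/tor1 and from -0.11 to 0.048 for tsc2/tsc1. With the length trend removed, an alternative chosen after seeing the data, sin1/tor1 was at 0.053 and ste20/tor1 at 0.037. For these reversals the cause was not tested.

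Over all genes, 101 were called, 22 higher and 79 lower. At an adjusted p under 0.01 there were 5, 1 higher and 4 lower, and with the DESeq2 Wald test 568, 205 higher and 363 lower. With a library left out, calls ranged from 3 to 466, from 1 to 165 higher and from 2 to 301 lower. Each of these highest counts came without wild-type replicate 2, and the next highest total, 179, without wild-type replicate 3. Without wild-type replicate 2, 10 of 10 members were above 0, and 0 were called in either direction. The replicate numbers did not pair the samples, as the deviations of same-numbered libraries correlated at 0.19, -0.33 and -0.18. The replicate block called 3 genes, 0 higher and 3 lower, and 4 genes, 1 higher and 3 lower, with the length trend also removed. The block took the calls in the downstream and nitrogen-response lists from 1 to 0, with fkh1 at -0.89 (adjusted p = 0.151) and isp4 at 1.38 (adjusted p = 0.169), and the length offset also took both to 0. DESeq2 called 3 downstream genes higher and 1 lower, 1 upstream gene higher and 2 lower, and 1 other TORC subunit, 1 GATA factor and 2 nitrogen-response transcripts higher. Of all 5112 genes it tested, it called 4.01% higher, and 363 genes lower. With a library left out, the lists had 0 to 2 calls in the downstream (lower), nitrogen-response (higher) and upstream (lower) lists, and 0 to 1 higher in the others.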
